A study of Homo sapiens with 6 samples.

Results

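The comparison set 2 libraries of 293T cells in which PRMT1 was depleted by a short hairpin RNA against 2 libraries of wild-type control 293T cells. These are 4 of the 6 libraries of a total RNA sequencing study. The other 2 came from 293T cells with a CRISPR/Cas9 knockout of MLL2, a name used for both of the H3K4 methyltransferases KMT2B and KMT2D. 293T is an established human embryonic kidney line that carries the SV40 large T antigen. The labels give the control as wild type with no treatment. The alignments behind the control counts are named WTshNT in the file headers, which the labels do not explain, so whether the control cells also carried a hairpin is not known. The labels name neither the hairpin sequence nor the time after its delivery. The series' design text calls the libraries of a group biological replicates, without saying how the cells were grown. The p-values therefore measure the spread between these libraries. Of 60669 genes in each file, 17575 had enough counts to be tested, and 13328 of those were protein-coding. The 6 libraries held 20061471 to 22351532 counted reads each.

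PRMT1 is the main enzyme that places asymmetric dimethyl marks on arginines in mammalian cells. It uses S-adenosylmethionine as the methyl donor and acts on histone H4, on many RNA-binding proteins with glycine- and arginine-rich stretches, and on transcription factors and signalling proteins. The study asked which genes depend on PRMT1 and on MLL2, and its title links PRMT1 to MLL2 stability. Protein was not measured in the files used here. In bulk RNA, fewer cells expressing a gene and less RNA per cell cannot be told apart.

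PRMT1 lies on chromosome 19 (hg38, chr19:49675786-49689029, plus strand), and its level checked the labels. It stood at 306 and 319 CPM (counts scaled to the size and composition of each library) in the control libraries and at 38.2 and 34.9 CPM in the knockdown libraries. The groups were far apart and the libraries within each were close, a log2 change of -3.10 ± 0.09 (SE). Of the 8 tested genes of the arginine methyltransferase family, 5 were lower and none was higher, against a background of 25.3% of all tested genes called lower, 22.2% called higher and 47.4% called in either direction. PRMT1 is itself 1 of the 5. PRMT9, a type II enzyme that methylates the splicing factor SF3B2, went from 38.7 and 34.1 CPM to 27.5 and 23.8 CPM (-0.51 ± 0.12). PRMT3, which methylates a ribosomal protein in the cytosol, went from 103 and 104 CPM to 83.2 and 77.3 CPM (-0.37 ± 0.09). PRMT6, a nuclear enzyme that marks histone H3, went from 66.6 and 68.6 CPM to 57.3 and 48.6 CPM (-0.35 ± 0.10), and PRMT7, the monomethylating enzyme, from 89.03 and 93.3 CPM to 75.3 and 77.2 CPM (-0.26 ± 0.10). In each of these 4 genes both knockdown libraries lay below both controls, as they did in 38.5% of all tested genes. The decreases of the 4 were between -0.51 and -0.26 on the log2 scale, small beside that of PRMT1. PRMT5, the enzyme of symmetric marks (0.02 ± 0.08, adjusted p = 0.868), CARM1 (-0.07 ± 0.09, adjusted p = 0.575) and PRMT2 (0.10 ± 0.09, adjusted p = 0.345) did not pass the test. The small decreases of PRMT6 and PRMT7 depended on single libraries. PRMT6 lost its call without the second control library (-0.34, adjusted p = 0.0503) or the second knockdown library (-0.24, adjusted p = 0.0539), and PRMT7 without the first (-0.30, adjusted p = 0.0764) or second control library (-0.23, adjusted p = 0.175). The remaining family member, PRMT8, had too few counts to be tested.

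Partners of the enzymes moved both ways. Among 12 cofactors and binding partners, 5 were higher and 5 lower, with a median of -0.10, and 5 and 3 after length adjustment, with a median of 0.07. WDR77, the obligate partner of PRMT5, rose from 98.9 and 98.1 CPM to 141 and 136 CPM, and RIOK1, a PRMT5 adaptor, rose from 103 and 109 CPM to 148 and 142 CPM. BTG1, a binding partner and regulator of PRMT1, fell from 43.1 and 48.3 CPM to 32.7 and 28.2 CPM, whereas its relative TOB2 rose from 36.7 and 37.005 CPM to 53.7 and 60.8 CPM. In the methionine cycle, which supplies and clears the methyl donor, 4 of 13 tested genes were higher and 5 lower. AHCY, which breaks down the S-adenosylhomocysteine left after each methylation, fell from 413 and 428 CPM to 279 and 256 CPM (-0.65 ± 0.08). CTH, the cystathionine gamma-lyase that makes cysteine, fell from 46.8 and 46.5 CPM to 18.5 and 18.4 CPM (-1.33 ± 0.12), and CBS, the enzyme before it, fell from 23.5 and 27.6 CPM to 14.4 and 11.3 CPM. MAT2A, which makes the methyl donor in most tissues, rose from 152 and 149 CPM to 179.9 and 188 CPM, a change of 0.29 that lost its call without the first (0.30, adjusted p = 0.0538) or the second control library (0.27, adjusted p = 0.0837). MAT1A, its liver form, was low in both controls (1.45 and 0.344 CPM) and had no count in the knockdown libraries. Its control mean was 6.47-fold above a floor of 3 counts per library, a ratio that leaves out the spread between the controls. Without the first control library MAT1A was no longer called (-5.89, adjusted p = 0.0628, a fitted value that is no bound), and without the second its fitted value was -7.94 (adjusted p = 0.00234).

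All adjusted p-values here come from quasi-likelihood tests in edgeR, adjusted by the Benjamini-Hochberg method. By that test 8338 of the 17575 genes were called at an adjusted p under 0.05, 3899 higher and 4439 lower. These shares of all tested genes, 22.2% higher and 25.3% lower, are the background for the unadjusted counts of every gene list below. The median log2 change over all tested genes was -0.04. Many calls were small, with 3072 under 1.5-fold. Decreases outnumbered increases at 2-fold or more, with 1790 genes lower (10.2% of those tested) and 1066 higher (6.07%). At a fitted 8-fold or more the order turned, with 176 genes higher and 152 lower, among them genes with no count in a group. Of the genes called higher, 3886 had both knockdown libraries above both controls, as 35% of all tested genes did, called or not, and of those called lower, 4434 had both below, as 38.5% of all tested genes did. The label of the cell line was checked against 12 markers of 293T cells. All 12 passed the filter, with LIN28B (172 and 173 CPM in the controls) and VIM (490.3 and 498 CPM) well expressed. The neurofilament gene NEFL fell from 347 and 352 CPM to 56.6 and 53.3 CPM and the keratin gene KRT8 from 30.99 and 37.7 CPM to 7.01 and 6.76 CPM, while IGF2BP1, an oncofetal RNA-binding protein gene, rose from 97.1 and 85.5 CPM to 211 and 332 CPM. Of 6 hepatocyte markers none passed the filter and 4 had no count in the 4 libraries, and of 8 immune markers 1 passed and 3 had no count. Of 6 endothelial markers 1 passed and 1 had no count. Of 8 fibroblast markers 5 passed and COL1A2 had no count, and the list summed to 17.3 and 18.6 CPM in the controls and 13.4 and 12.5 CPM in the knockdown.

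The size of the change went with the exon length of the gene. That length merges all annotated exons of a gene and is not the length of a single transcript. Among 11509 genes above an average log2 CPM of 2, the median change rose on the log2 scale step by step with the summed exon length given in the files: -0.45 below 1000 nt (222 genes), -0.37 from 1000 to 2000 nt, -0.15 from 2000 to 4000 nt, 0.01 from 4000 to 8000 nt and 0.16 at 8000 nt and above (2852 genes). Both knockdown libraries had this slope. It was steeper in the second library, from -0.58 to 0.20, than in the first, from -0.31 to 0.12, and it was nearly absent between the 2 controls, from 0.02 to -0.04. Genes of at least 8000 nt took 21.3% and 20.7% of counts in the controls, 21.4% and 21.8% in the MLL2 knockout and 24.2% and 26.4% in the knockdown. Within genes of 2000 to 4000 nt, the median ranged only from -0.20 to -0.10 between classes of genomic span. Because length moved with the groups, each change was fitted a second time with an offset per gene and library taken from a smooth curve on length.

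The adjustment left the number of calls almost unchanged and redistributed them. It gave 8329 calls (47.4% of genes tested), 3803 higher (21.6%) and 4526 lower (25.8%). Of these, 7346 were called in the same direction in both fits and 2 in opposite directions. Each length curve was centred on its median over the tested genes, and the balance of directions rested on that choice. With uncentred curves 4637 genes were higher and 3900 lower. Among the longest genes, the calls went from 1165 higher and 648 lower to 787 higher and 923 lower. Among those below 1000 nt, they went from 33 higher and 114 lower to 41 higher and 83 lower. Most genes with a large change kept their call, since 84 of the 2856 genes called at 2-fold or more lost it. The median gene moved by 0.12 log2 and the most shifted gene by 2 log2, so the size of a change could move while its call was kept. The giant cytolinker gene DST rose from 242 and 211 CPM to 433 and 481 CPM, and its log2 change went from 1.01 to 0.14 with the adjustment. That of the chromatin remodeller gene ARID1B went from 0.83 to -0.04, so that neither was called after adjustment. MACF1, a relative of DST, went the other way, from 0.19 and no call to -0.62 and a call (adjusted p = 1.35e-06). Before adjustment MACF1 was called higher without the first knockdown library, 0.35 (adjusted p = 4.27e-05). Short genes gained: UQCC4, a respiratory complex assembly gene, went from 0.27 to 0.57 and became called, and the mitochondrial ribosomal gene MRPL14 went from -0.38 to -0.08 and lost its call. Of the 78 mitochondrial ribosomal protein genes tested, 12 were higher and 27 lower before adjustment and 20 higher and 12 lower after it, with a median that went from -0.15 to 0.01.

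**Figure D1:**
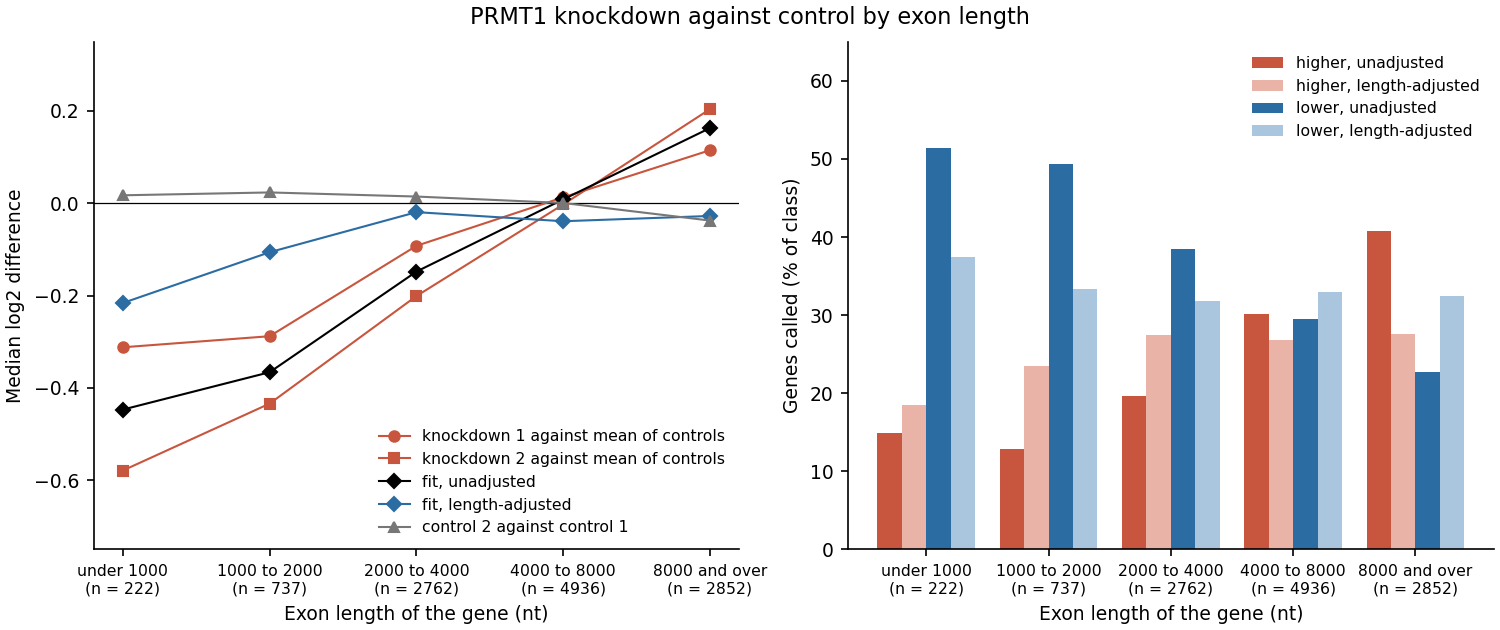
Left, median log2 difference for genes with an average log2 CPM above 2 in 5 classes of exon length, for each knockdown library, the fit with and without length adjustment, and between the controls; right, percentage of each class called higher or lower in either fit. The unadjusted medians climb from -0.45 to 0.16 with length, and the adjusted ones run from -0.22 to -0.03.

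The largest increases among protein-coding genes reaching 5 CPM and called in both fits belonged to genes of varied known function. EMILIN2, an extracellular matrix glycoprotein gene, led with 7.14 and 7.14 CPM in the controls and 132 and 141 CPM in the knockdown (4.26 ± 0.12). NLRP1, an inflammasome sensor, went from 0.948 and 0.344 CPM to 7.40 and 12.2 CPM, and DNAH17, an axonemal dynein heavy chain gene, from 0.549 and 0.837 CPM to 10.1 and 9.30 CPM. The forkhead gene FOXD4 rose from 1.60 and 1.23 CPM to 14.2 and 14.3 CPM (3.33 ± 0.26), and DHRS2, a mitochondrial reductase gene, rose from 4.14 and 7.18 CPM to 50.1 and 45.3 CPM (3.07 ± 0.19). The groups do not overlap in these genes because the choice of the largest changes required both knockdown libraries on 1 side of both controls. The fitted change of NLRP1, 3.92, was 4.80 (adjusted p = 7.02e-07) without the first control library. WDR4, a subunit of the tRNA m7G methyltransferase, rose from 13.8 and 12.6 CPM to 54.7 and 62.1 CPM (2.15 ± 0.13, adjusted p = 7.30e-11). MXD1, a repressor that competes with MYC for its partner MAX, rose from 2.99 and 2.66 CPM to 12.6 and 12.3 CPM, and its sister MXI1 fell from 79.8 and 67.7 CPM to 24.7 and 23.1 CPM (-1.63 ± 0.11). TPP1, a lysosomal peptidase, rose from 3.24 and 4.28 CPM to 17.7 and 23.2 CPM. GPX3, a secreted glutathione peroxidase, RFX6, a pancreatic transcription factor, ANKRD1, a target of YAP, and TEX14, a gene of germ cell bridges, rose by 2.15, 2.26, 2.23 and 2.30 on the log2 scale. MYH15, a myosin heavy chain gene, rose by 2.34 and TAS2R4, a bitter taste receptor gene, by 2.52. PRR12 (2.26) rested on the second knockdown library, with 2.66 and 9.48 CPM in the 2 libraries against 1.45 and 1.08 CPM in the controls. Without that library it was 1.07 (adjusted p = 0.137), and without the first 2.90 (adjusted p = 1.62e-08).

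Among 55 genes with no count in either control and a knockdown level above the floor, AOX1, an aldehyde oxidase gene, stood at 1.64 and 0.790 CPM in the knockdown. AKR1B10, an aldo-keto reductase gene, stood at 1.26 and 0.658 CPM. Their knockdown means were 8.19-fold and 6.44-fold above the floor of the controls. In the other direction 26 genes had no count in the knockdown. DRC7, a ciliary dynein regulator gene, went from 1.15 and 1.67 CPM to 0, with a control mean 10.2-fold above the floor of the knockdown. The floor covers counting error in the empty group only. The mean of the group with reads has its own spread, which these ratios leave out.

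The largest decreases included several abundant transcripts. TSC22D3, which encodes the glucocorticoid-induced leucine zipper GILZ, fell from 1073 and 1131.5 CPM to 76.3 and 67.9 CPM (-3.94 ± 0.09, adjusted p = 3.28e-17). CA2, a cytosolic carbonic anhydrase gene, fell from 202 and 199 CPM to 14.1 and 16.7 CPM (-3.70 ± 0.11), and PCK2, mitochondrial phosphoenolpyruvate carboxykinase, from 144 and 150.4 CPM to 10.1 and 9.26 CPM (-3.93 ± 0.12). In these 3 genes the libraries of a group were close and the groups far apart. IGFBP5, a binding protein for insulin-like growth factors, fell from 32.99 and 35.97 CPM to 2.18 and 2.85 CPM. SULF1, which trims sulfate from heparan sulfate, fell from 41.5 and 39.2 CPM to 2.71 and 3.64 CPM, and FCGRT, the heavy chain of the neonatal Fc receptor, from 27.6 and 27.9 CPM to 2.03 and 2.37 CPM. FEZ1, a kinesin adaptor gene of axon growth, fell from 14.1 and 19.5 CPM to 0.725 and 0.922 CPM. FUT1, the H-antigen fucosyltransferase, and NUPR1, a stress-induced chromatin protein gene, fell to nearly no reads. FUT1 went from 6.89 and 6.94 CPM to 0 and 0.0878 CPM and NUPR1 from 5.79 and 6.25 CPM to 0.290 and 0 CPM. NT5M, a mitochondrial nucleotidase, AK7, an adenylate kinase of cilia, and DENND2A, a Rab exchange factor, fell by 3.81, 4.58 and 3.65 on the log2 scale. CDH3 (P-cadherin) and ALKAL1, a ligand of the ALK receptor, fell by 3.51 and 4.28, each with fewer reads in the first knockdown library than in the second. The sizes of the decreases of genes with so few knockdown reads depended on the library. Without the first knockdown library the fitted change was -2.80 (adjusted p = 2.78e-06) for CDH3, -3.46 (adjusted p = 1.30e-07) for ALKAL1, -6.21 (adjusted p = 2.04e-10) for FUT1 and -9.99 (adjusted p = 8.99e-11) for NUPR1. Without the second it was -5.19 (adjusted p = 1.56e-10), -6.86 (adjusted p = 4.41e-12), -10.15 (adjusted p = 3.74e-13) and -4.35 (adjusted p = 7.00e-09) in the same order, and -5.39 (adjusted p = 1.46e-14) for AK7. The length adjustment moved the decreases of TSC22D3, PCK2, CA2 and IGFBP5 to -3.95, -3.91, -3.47 and -3.85.

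**Figure D2:**
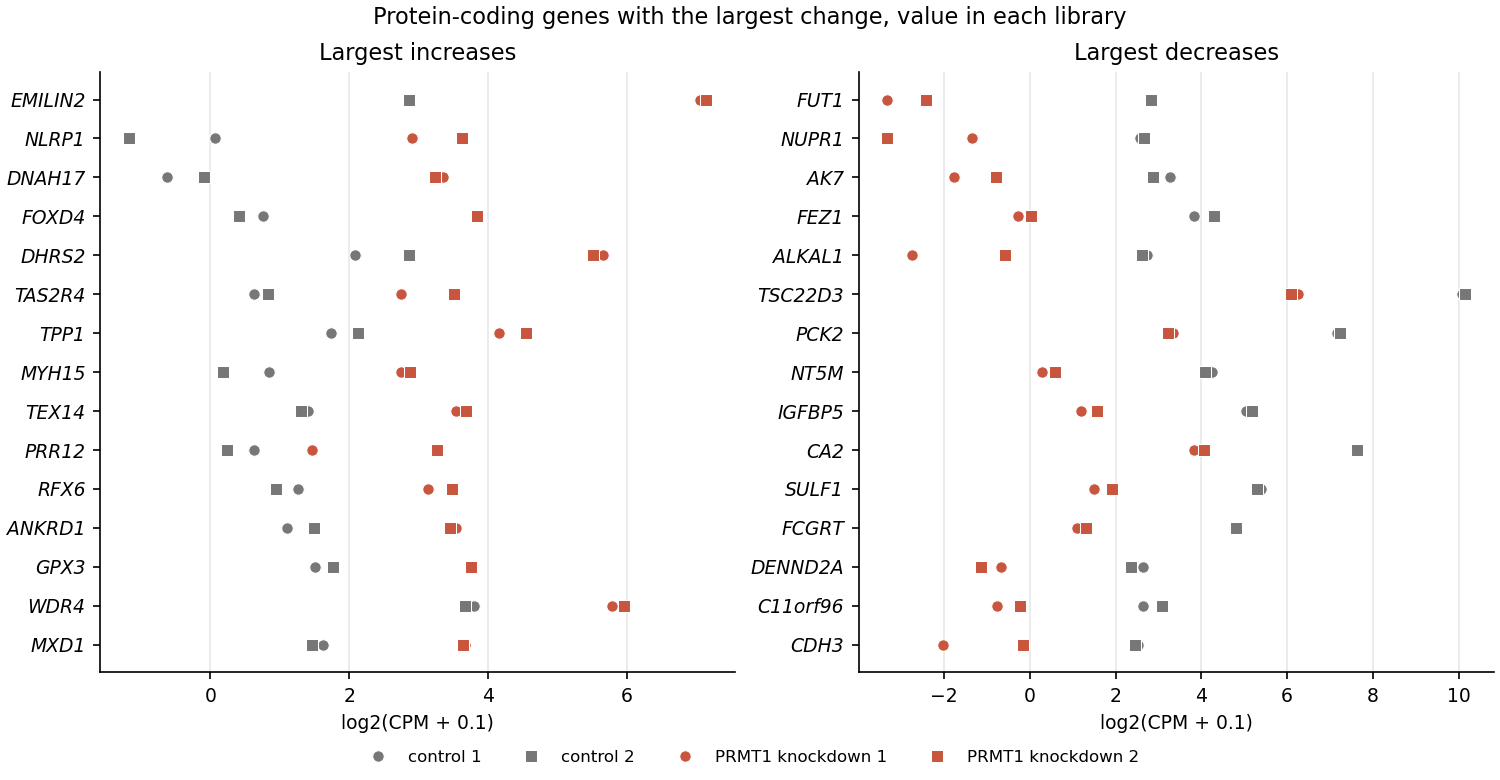
Level in each library, as log2(CPM + 0.1), of the 15 protein-coding genes with the largest increase (left) and decrease (right) that were called in both fits; grey, control; red, knockdown; circles and squares, replicates 1 and 2. Both knockdown libraries lie on 1 side of both controls in all 30 genes because the choice of genes required it. PRR12 has the widest gap between the 2 knockdown libraries among the increases.

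Most genes that charge tRNAs in the cytosol fell. Aminoacyl-tRNA synthetases attach amino acids to their tRNAs, and several are transcribed under ATF4, the factor of the amino acid response, through a C/EBP-ATF element whose core can read TGATGCAA. Of the 23 cytosolic synthetases and cofactors tested, 14 were lower and 4 higher, with a median of -0.44 (-0.49 after length adjustment) against -0.04 over all genes. The mitochondrial synthetases divided evenly, 5 higher and 5 lower of 16. EPRS1, which charges glutamate and proline, fell from 1065 and 1098 CPM to 452 and 404 CPM (-1.34 ± 0.08). SARS1 fell from 621 and 644 CPM to 299.7 and 268 CPM, YARS1 from 790.2 and 774 CPM to 375 and 338 CPM and GARS1 from 423 and 437 CPM to 234 and 212 CPM. RARS1, FARSA, FARSB and the cofactor gene EEF1E1 were the 4 that rose, by 0.25 to 0.52. Of these, RARS1 lost its call when any 1 library but the second knockdown library was left out, EEF1E1 without the first control or the first knockdown library and FARSA without the first control library. Their changes without the first control library were 0.24 (adjusted p = 0.169), 0.47 (adjusted p = 0.0759) and 0.17 (adjusted p = 0.291), and without the first knockdown library RARS1 stood at 0.07 (adjusted p = 0.388) and EEF1E1 at 0.20 (adjusted p = 0.299). The core was searched on both strands in RefSeq promoters, the 250 bases before and 50 after each gene's start on GRCh38.p14, which were at hand for 10803 of the 13328 protein-coding genes tested. It occurred in 0.923% of all 27305 promoters of the table and in 0.5% of those of the tested genes, and 6 of the 19 synthetase promoters at hand held it: AARS1, CARS1, IARS1, MARS1, NARS1 and TARS1. All 6 were among the genes that fell. MARS1, which charges methionine, fell from 535 and 559 CPM to 257 and 238 CPM, and IARS1, for isoleucine, from 1715 and 1715 CPM to 884 and 789 CPM. CARS1, for cysteine, fell from 118 and 131 CPM to 78.1 and 64.7 CPM, and TARS1, for threonine, from 587 and 625 CPM to 431 and 379 CPM. AARS1, for alanine, fell from 452 and 460.15 CPM to 314 and 316 CPM, and NARS1, for asparagine, from 337 and 366 CPM to 277 and 226 CPM. In none of the 6 did the groups overlap, as was so in 4434 of the 4439 genes called lower. The matches are shown to let the sequence be set beside these values, with the element or its reverse complement in capitals. CHAC1, a glutathione-degrading enzyme of the amino acid response, is shown as the single match among the 27 promoters at hand of 36 genes of that response, so that the other 26 lack the core in this window. CHAC1 fell from 16.4 and 16.3 CPM to 1.84 and 1.32 CPM (-3.38 ± 0.26). Coordinates are CHAC1 chr15:40953221-40953309 (plus strand), AARS1 chr16:70289646-70289753 (minus strand), IARS1 chr9:92293698-92293770 (minus strand), CARS1 chr11:3057408-3057435 (minus strand), MARS1 chr12:57488054-57488081 (plus strand), NARS1 chr18:57621805-57621832 (minus strand) and TARS1 chr5:33440957-33440984 (plus strand). In the last 4 the element reaches or follows the annotated start, so only its close surroundings are printed.
CHAC1: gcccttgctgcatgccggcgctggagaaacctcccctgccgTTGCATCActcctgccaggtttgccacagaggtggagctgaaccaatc
AARS1: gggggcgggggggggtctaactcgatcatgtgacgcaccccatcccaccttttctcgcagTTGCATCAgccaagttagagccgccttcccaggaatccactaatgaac
IARS1: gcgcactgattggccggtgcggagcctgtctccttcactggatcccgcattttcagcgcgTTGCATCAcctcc
CARS1: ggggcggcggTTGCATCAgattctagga
MARS1: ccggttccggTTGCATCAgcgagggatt
NARS1: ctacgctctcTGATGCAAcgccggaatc
TARS1: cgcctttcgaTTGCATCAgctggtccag
Of the 54 tested genes with this element in the promoter, 35 were lower and 8 higher. Of all 10803 tested genes with a promoter at hand, 3239 were lower and 2735 higher. A match is a description of the sequence and no evidence that a factor bound there.

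Lysosomal genes split into a rising and a falling set of equal size. The lysosome degrades material by acid hydrolases, and a network of its genes carries a palindromic E-box, with the core TCACGTGA, that TFEB and related factors read. Of the 34 lysosomal genes tested, 13 were higher and 13 lower, with a median of -0.02 (-0.17 after length adjustment). CTSA, the protective protein and cathepsin A gene, rose from 27.7 and 27.5 CPM to 117 and 109 CPM (2.03 ± 0.10). LAMP1, the major membrane glycoprotein of the organelle, rose from 38.1 and 45.7 CPM to 125 and 115 CPM (1.52 ± 0.11). NPC1, the cholesterol exporter, rose from 65.4 and 59.2 CPM to 108 and 120.3 CPM, and CTSD, an aspartyl protease, from 30.2 and 30.6 CPM to 54.4 and 52.4 CPM. On the falling side, GLA, alpha-galactosidase A, went from 387 and 372 CPM to 186 and 162 CPM (-1.13 ± 0.09), and the cysteine proteases CTSL and CTSB went from 105 and 113 CPM to 69.25 and 60.6 CPM and from 91.4 and 88.4 CPM to 57.3 and 54.4 CPM. TFEB fell from 5.69 and 5.66 CPM to 1.79 and 1.93 CPM (-1.60 ± 0.32, adjusted p = 0.000289), and its relative TFE3 did not pass the test (-0.23 ± 0.14, adjusted p = 0.19). The core TCACGTGA, which is its own reverse complement, occurred in 1.04% of all promoters of the table, in 1.91% of those of the tested genes and in 5 of the 22 lysosomal promoters at hand. Among those 5, CTSA, LAMP1, MCOLN1 and ATP6V0D1 rose and GAA, the acid glucosidase gene, fell by 0.47. MCOLN1, the mucolipin calcium channel, went from 3.34 and 5.17 CPM to 8.22 and 8.51 CPM, and ATP6V0D1, a subunit of the proton pump, from 83.5 and 77.7 CPM to 116 and 109 CPM. MCOLN1 lost its call without the first control library (0.69, adjusted p = 0.0685) and GAA without the first knockdown library (-0.28, adjusted p = 0.0617). The promoters of LAMP1 and MCOLN1 held the core at 2 places. The stretches before the start site of the 4 rising genes are shown with each core they hold in capitals, at CTSA chr20:45891249-45891334 (plus strand), LAMP1 chr13:113297150-113297238 (plus strand), MCOLN1 chr19:7522522-7522623 (plus strand) and ATP6V0D1 chr16:67481170-67481277 (minus strand).
CTSA: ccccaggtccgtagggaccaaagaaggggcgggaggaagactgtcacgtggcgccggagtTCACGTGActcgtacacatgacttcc
LAMP1: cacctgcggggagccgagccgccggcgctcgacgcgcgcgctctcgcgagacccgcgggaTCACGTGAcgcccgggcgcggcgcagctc
MCOLN1: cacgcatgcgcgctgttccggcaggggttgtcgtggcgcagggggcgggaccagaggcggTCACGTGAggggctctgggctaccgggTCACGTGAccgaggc
ATP6V0D1: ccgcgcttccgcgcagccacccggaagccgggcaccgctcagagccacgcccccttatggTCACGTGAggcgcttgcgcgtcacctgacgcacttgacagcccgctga
Over all tested genes with the core in the promoter, 78 were higher and 44 lower of 206. Of all 10803 tested genes with a promoter at hand, 2735 were higher and 3239 lower.

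**Figure D3:**
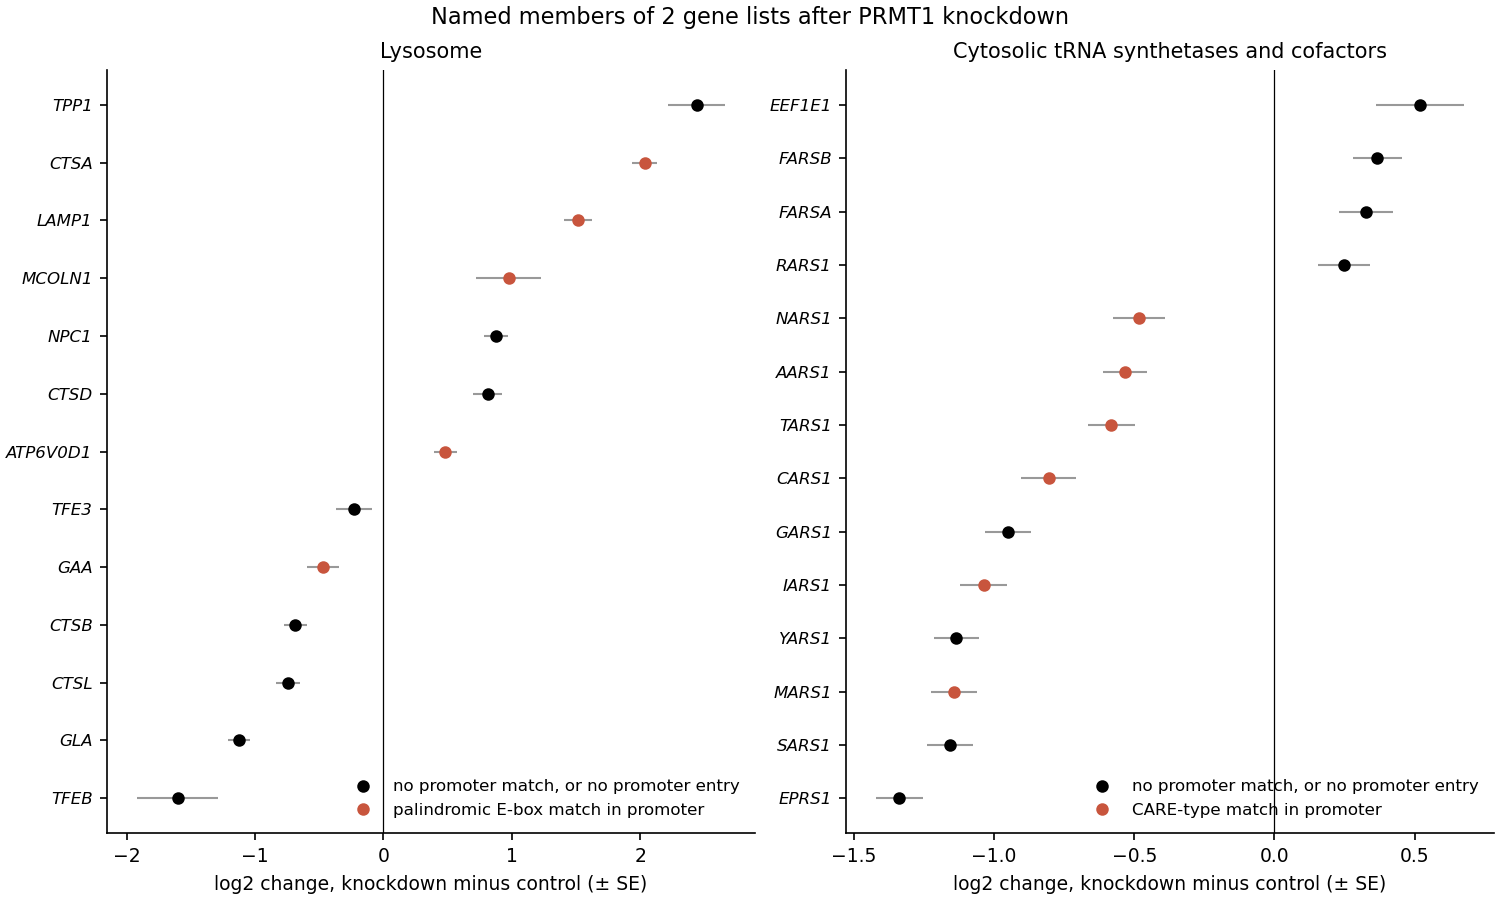
Log2 change with its standard error for the lysosomal genes (left) and the cytosolic tRNA synthetase and cofactor genes (right) that the text names, ordered by size; other tested members are not drawn; red, a promoter match to TCACGTGA (left) or TGATGCAA (right). The lysosomal genes drawn span from -1.60 for TFEB to 2.44 for TPP1, and the 6 synthetase genes with a match lie between -1.14 and -0.48.

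Genes of autophagy leaned upward before length adjustment, with 13 higher (48.1%) and 5 lower (18.5%) of 27, against 22.2% and 25.3% of all tested genes. After it 10 were higher and 5 lower, against 21.6% and 25.8% of all genes. The list median went from 0.18 to 0.06 with the adjustment. ATG14, a subunit of the lipid kinase complex that starts the autophagosome, rose from 28.2 and 23.5 CPM to 71.04 and 70.7 CPM (1.45 ± 0.11). SQSTM1, the p62 cargo receptor, rose from 145 and 152 CPM to 322 and 292 CPM. GABARAPL1, a ubiquitin-like protein of the autophagosome membrane, rose from 37.9 and 44.7 CPM to 73.1 and 65.1 CPM, and ATG5, part of the conjugation machinery, from 55.3 and 57.5 CPM to 101.2 and 82.1 CPM. ULK1 rose from 6.99 and 7.58 CPM to 11.5 and 18.9 CPM and its paralog ULK2 fell from 30.7 and 31.1 CPM to 14.9 and 13.3 CPM. In both kinases the groups did not overlap. Both knockdown libraries lay above both controls in 35% of all tested genes and below them in 38.5%.

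Genes for chromatin coactivators were called in 1 direction. Of 24 acetyltransferases and coactivators, which acetylate histones or bridge activators to RNA polymerase II, 19 were higher and none lower, with a median of 0.54. In the adjusted fit 13 of 24 were higher and none lower, with a median of 0.31. CREBBP rose from 14.7 and 17.9 CPM to 47.7 and 71.4 CPM (1.87 ± 0.16) and its paralog EP300 from 33.1 and 33.6 CPM to 67.2 and 108 CPM (1.39 ± 0.15). BRD2, a reader of acetylated histones, rose from 169.5 and 166 CPM to 273 and 285 CPM. The steroid receptor coactivator NCOA3 rose from 38.2 and 30.7 CPM to 73.3 and 81.2 CPM (1.17 ± 0.11). These genes have a long summed exon length, with a median of 9150.5 nt. KAT6A (0.56 to 0.09), KAT6B (0.85 to 0.21) and MED13L (0.81 to 0.09) lost their calls with the adjustment. Several were higher in the second knockdown library than in the first, as CREBBP and EP300 were.

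The H3K4 methyltransferases and their complex members gave 12 higher and 3 lower of 20 in both fits. KMT2C rose from 119 and 93.99 CPM to 227 and 319 CPM (1.361 ± 0.13). KDM6A, the demethylase in the KMT2C and KMT2D complexes, rose from 64.7 and 57.03 CPM to 111.6 and 115 CPM (0.90 ± 0.09), and the core subunit RBBP5 from 59.5 and 60.4 CPM to 98.2 and 99.98 CPM. The methyltransferase gene SETD1A rose from 8.68 and 7.33 CPM to 17.3 and 26.8 CPM and its cofactor gene HCFC1 from 24.7 and 30.5 CPM to 58.1 and 115 CPM. SETD1B rose from 4.49 and 2.26 CPM to 4.69 and 15.1 CPM, and in all 3 the second library was well above the first. SETD1B stood at 0.47 (adjusted p = 0.328) without the second knockdown library, 2.16 (adjusted p = 5.43e-09) without the first and 1.14 (adjusted p = 0.052) without the second control. PSIP1, which tethers KMT2A complexes to chromatin, fell from 258 and 269 CPM to 149 and 119.9 CPM (-0.97 ± 0.09), and PAGR1, a subunit shared by the KMT2C and KMT2D complexes, from 56.1 and 57.8 CPM to 30.1 and 29.8 CPM (-0.93 ± 0.10). KMT2A was higher without the adjustment (0.53) and not called with it (-0.11, adjusted p = 0.42). Its unadjusted call was also lost without the second knockdown library, 0.14 (adjusted p = 0.345), and without the second control library, 0.42 (adjusted p = 0.0873). Lysine demethylases were led by KDM2A, from 43.3 and 38.97 CPM to 106 and 124 CPM (1.48 ± 0.10), and JMJD1C, from 51.5 and 43.9 CPM to 93.1 and 103 CPM. The direction of the BAF and chromatin remodeller list depended on length: 15 were higher and 8 lower of 33 with a median of 0.20, and 8 higher and 11 lower with a median of -0.10 after adjustment. Within it, SMARCD3 fell from 60.5 and 54.8 CPM to 24.95 and 17.8 CPM (-1.43 ± 0.13) and SMARCA1 from 194 and 178 CPM to 102 and 97.6 CPM (-0.89 ± 0.08) in both fits, and INO80 rose from 49.005 and 40.3 CPM to 84.05 and 84.97 CPM in both.

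In the cell cycle, the kinase gene CDK6, which drives entry into S phase with D-type cyclins, rose from 82.3 and 73.4 CPM to 265 and 279 CPM (1.80 ± 0.09, adjusted p = 2.66e-12). Its inhibitor CDKN2B rose from 6.39 and 7.28 CPM to 17.5 and 17.95 CPM (1.37 ± 0.18) and the p27 gene CDKN1B from 40.02 and 43.9 CPM to 69.1 and 60.3 CPM, whereas the p21 gene CDKN1A fell from 37.6 and 40.8 CPM to 18.04 and 15.8 CPM (-1.21 ± 0.13). Of 43 replication genes, 21 were lower and 8 higher: the DNA ligase gene LIG1 fell from 119 and 127 CPM to 54.4 and 56.6 CPM and the helicase subunit MCM5 rose from 275 and 282 CPM to 465 and 433 CPM. CCNE1, a cyclin of the S-phase start, fell from 43.1 and 39.1 CPM to 26.4 and 19.8 CPM, and its paralog CCNE2 from 33.4 and 31.7 CPM to 19.2 and 15.5 CPM. Of 40 mitotic genes, 16 were lower and 6 higher, with KIF23, a kinesin of cytokinesis, at 184 and 195 CPM in the controls and 94.2 and 94.8 CPM in the knockdown. Targets of p53 also went both ways, 7 higher (25%) and 10 lower (35.7%) of 28, against 22.2% and 25.3% of all tested genes. 293T cells carry large T antigen, which binds p53. XPC, a damage sensor of nucleotide excision repair, fell from 92.7 and 83.1 CPM to 34.7 and 32.8 CPM, and DDB2, another, from 31.04 and 38.1 CPM to 10.2 and 10.01 CPM. ZMAT3, an RNA-binding target of p53, rose from 11.1 and 13.4 CPM to 36.8 and 38.4 CPM.

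Regulators of apoptosis were divided, 7 higher (28%) and 6 lower (24%) of 25, close to the 22.2% and 25.3% of all tested genes. BCL2L11, the BH3-only killer protein BIM, rose from 14.3 and 11.7 CPM to 34.6 and 44.8 CPM (1.61 ± 0.15). The initiator caspase gene CASP2 rose from 23.6 and 21.8 CPM to 37.2 and 53.1 CPM. PMAIP1, another BH3-only gene, fell from 184 and 199.5 CPM to 131 and 111 CPM, as did the survival gene BCL2L2, from 21.1 and 13.7 CPM to 7.35 and 8.65 CPM. BCL2L1, the survival gene of BCL-XL, fell from 21.8 and 21.2 CPM to 14.3 and 15.5 CPM. MCL1, a survival gene of the same family, rose from 221 and 224 CPM to 299 and 278 CPM. Genes of either role, killer and survival, were thus found among those that rose and those that fell.

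In SMAD signalling, inhibitors, ligands and receptors all had members that changed. TGF-beta and BMP ligands signal through receptor kinases to SMAD proteins, and SMAD6 and SMAD7 are induced inhibitors of the pathway. SMAD7 rose from 24.5 and 21.5 CPM to 67.2 and 68.6 CPM (1.57 ± 0.11), SMAD6 from 35.5 and 41.9 CPM to 78.3 and 108 CPM (1.27 ± 0.13), and the decoy receptor gene BAMBI from 21.9 and 18.4 CPM to 39.3 and 39.5 CPM. ID3, a BMP target that blocks basic helix-loop-helix factors, rose from 84.5 and 90.9 CPM to 161 and 149.7 CPM, whereas ID2 fell from 166 and 165 CPM to 119 and 105 CPM. Among ligands and antagonists, BMP7 fell from 62.8 and 62.3 CPM to 29.6 and 36.2 CPM, the BMP antagonist NOG from 11.98 and 14.8 CPM to 2.27 and 3.77 CPM and LTBP1, which stores latent TGF-beta in the matrix, from 59.2 and 65.99 CPM to 24.8 and 27.3 CPM (-1.26 ± 0.11). Receptors went both ways, with TGFBR1 falling from 66.3 and 69.2 CPM to 35.9 and 39.5 CPM and the activin receptor gene ACVR2A rising from 22.2 and 23.3 CPM to 45.1 and 42.5 CPM. In all, 13 of 36 were higher (36.1%) and 7 lower (19.4%), against 22.2% and 25.3% of all tested genes.

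Receptor tyrosine kinases differed from each other. IGF1R rose from 47.5 and 45.5 CPM to 96.3 and 149.97 CPM (1.41 ± 0.15) and KIT from 27.8 and 28.4 CPM to 50.9 and 43.9 CPM, whereas ERBB2 fell from 75.005 and 74.01 CPM to 40.6 and 39.2 CPM (-0.90 ± 0.10), ERBB3 from 7.735 and 8.86 CPM to 2.998 and 3.51 CPM and FGFR2 from 66.5 and 62.8 CPM to 41.5 and 40.4 CPM. DUSP4, a phosphatase that is induced by and switches off MAP kinases, fell from 10.6 and 9.64 CPM to 1.499 and 1.98 CPM (-2.54 ± 0.28), while DUSP5, a related phosphatase, rose from 7.09 and 7.68 CPM to 15.04 and 11.5 CPM. The immediate early gene FOS fell from 5.64 and 8.02 CPM to 1.06 and 0.439 CPM (-3.19), and by 3.95 (adjusted p = 8.62e-10) without the first knockdown library. In the Notch pathway, 6 of 21 were higher and 6 lower (28.6% each), against 22.2% and 25.3% of all tested genes. The effector HEY1 fell from 231 and 214 CPM to 74.7 and 76.4 CPM (-1.56 ± 0.08) and the ligand JAG1 from 22.2 and 25.05 CPM to 8.22 and 10.9 CPM, and the coactivator MAML1 rose from 29.4 and 32.2 CPM to 58.03 and 77.4 CPM (1.14 ± 0.12). Of 32 Wnt pathway genes, 6 were higher (18.8%) and 12 lower (37.5%). The Wnt receptor gene FZD2 fell from 11.4 and 13.5 CPM to 4.55 and 2.55 CPM, and SFRP1, a secreted antagonist, from 14.5 and 14.8 CPM to 3.63 and 4.08 CPM. Guidance genes gave 13 higher (30.2%) and 12 lower (27.9%) of 43, against 22.2% and 25.3% of all tested genes. SEMA3C rose from 19.9 and 19.5 CPM to 59.7 and 56.3 CPM (1.56 ± 0.11). The ephrin receptor gene EPHA7 rose from 54.2 and 57.9 CPM to 125 and 126 CPM and its ligand gene EFNA5 from 10.9 and 9.55 CPM to 21.2 and 22.9 CPM. The plexin PLXNB2 fell from 66.2 and 79.7 CPM to 24.2 and 30.5 CPM and EPHB2 from 32.4 and 32.9 CPM to 15.04 and 12.4 CPM.

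Cell-matrix receptors were mostly lower. Of 15 integrin genes tested, 10 fell (66.7%) and 1 rose (6.67%), against 25.3% and 22.2% of all tested genes. Their median was -0.77 (-0.87 after adjustment). ITGA4, a fibronectin and VCAM1 receptor subunit, fell from 24.4 and 20.7 CPM to 8.12 and 6.63 CPM (-1.61 ± 0.19), ITGB5 from 32.8 and 40.4 CPM to 14.1 and 15.2 CPM (-1.32 ± 0.14) and ITGB1, the shared beta subunit, from 194 and 188 CPM to 144 and 121 CPM (-0.53 ± 0.09). ITGAV, the vitronectin receptor subunit, was the 1 that rose, from 118 and 107 CPM to 187 and 183 CPM (0.72 ± 0.08). In the actin cytoskeleton list, 13 of 30 fell and 5 rose.

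Zinc finger genes were called higher more often than lower. HOX genes set position along the body axis, and of the 37 tested 9 (24.3%) were higher and 3 (8.11%) lower, against 22.2% and 25.3% of all genes, or 15 and 4 after adjustment. Their median exon length was 2417 nt. HOXA9 rose from 19.1 and 22.05 CPM to 45.4 and 42.4 CPM (1.09 ± 0.12), HOXA6 from 11.7 and 9.94 CPM to 20.7 and 26.5 CPM and HOXB3 from 13.4 and 16.4 CPM to 24.6 and 27.6 CPM, and the posterior gene HOXB13 fell from 29.1 and 25.98 CPM to 11.9 and 9.61 CPM. Of 409 tested zinc finger genes with a numbered ZNF symbol, a class in which many encode KRAB-domain repressors, 175 (42.8%) were higher and 46 (11.2%) lower. Their median of 0.34 was 0.29 after adjustment. ZNF678 rose from 72.3 and 74.6 CPM to 183 and 162 CPM and ZNF107 from 19.8 and 22.3 CPM to 63.8 and 56.05 CPM, whereas ZNF711, an X-linked activator, fell from 135 and 144 CPM to 57.1 and 50.6 CPM and ZNF395 from 36.6 and 34.6 CPM to 9.28 and 10.4 CPM. In the knockdown against the MLL2 knockout, 108 were higher and 64 lower, where 19.4% and 21.4% of all genes were called. Among kidney development factors, 7 of 23 rose and 7 fell (30.4% each), against 22.2% and 25.3% of all tested genes. The coactivator CITED1 fell from 8.18 and 8.17 CPM to 1.21 and 0.966 CPM (-2.91 ± 0.29) and SALL1 rose from 5.84 and 7.82 CPM to 14.9 and 18.96 CPM. Of 53 clustered protocadherins only 9 passed the filter on low counts. Of the 5 that were called, all higher, 4 had almost no reads in the controls and could pass the filter only through a group where they are higher, so their count is not read. The other was PCDHGC3, at 1.25 and 1.77 CPM in the controls and 2.80 and 4.52 CPM in the knockdown (1.28), which lost its call without the second knockdown library, 0.89 (adjusted p = 0.155), or the first control, 1.04 (adjusted p = 0.0943).

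In metabolism, the citric acid cycle gave 14 lower and 3 higher of 25. IDH2, the mitochondrial NADP-linked isocitrate dehydrogenase, fell from 194 and 195 CPM to 68.96 and 55.3 CPM (-1.65 ± 0.10), OGDH from 67.5 and 74.4 CPM to 29.4 and 28.7 CPM (-1.29 ± 0.10) and citrate synthase (CS) from 171 and 164.5 CPM to 103 and 110.4 CPM. PC, the carboxylase that refills the cycle, rose from 18.6 and 19.6 CPM to 31.2 and 31.25 CPM. In fatty acid synthesis, 11 were lower and 5 higher of 22. The elongase ELOVL6 fell from 42.8 and 40.99 CPM to 11.4 and 11.9 CPM (-1.84 ± 0.13) and the desaturase FADS1 from 185 and 166 CPM to 72.97 and 74.2 CPM. ACSS2, which makes acetyl-CoA from acetate, fell from 34.8 and 40.99 CPM to 13.2 and 12.2 CPM. The fatty acid synthase FASN rose from 90.1 and 104 CPM to 135.5 and 277 CPM, mostly in the second library, so that its log2 change of 1.09 was 0.48 (adjusted p = 9.88e-06) without it. In nucleotide synthesis, 14 fell and 6 rose of 30, with the guanine pathway enzymes moving apart: IMPDH2 fell from 812 and 836 CPM to 479.8 and 427 CPM and IMPDH1 rose from 74.01 and 82.7 CPM to 131 and 129 CPM. CAD, the enzyme that starts pyrimidine synthesis, rose from 121 and 104 CPM to 198 and 254 CPM.

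Chaperones and translation factors were called in both directions, and ribosomal proteins mostly lower. Of 21 cytosolic heat shock genes, 10 rose and 4 fell, with HSPA8 rising from 2377 and 2203 CPM to 4378 and 3739.6 CPM and HSP90AA1 from 517 and 565 CPM to 805 and 968 CPM. In the endoplasmic reticulum, 10 rose and 11 fell of 29; XBP1, a factor of the unfolded protein response, fell from 314 and 344.9 CPM to 202 and 182.5 CPM and the chaperone HSP90B1 from 691 and 712 CPM to 471 and 453 CPM. Of 82 cytosolic ribosomal protein genes, 74 were lower and 4 higher, with a median of -0.52, and 59 and 4 after length adjustment, with a median of -0.42. Of 44 translation factors, 13 rose (29.5%) and 19 fell (43.2%), against 22.2% and 25.3% of all tested genes. EIF3M, a subunit of the scaffold that loads ribosomes on mRNA, fell from 442 and 404.5 CPM to 148 and 129 CPM (-1.61 ± 0.09), and EIF4G2, which supports cap-independent initiation, rose from 388 and 373 CPM to 827 and 852 CPM (1.14 ± 0.08). Among 49 RNA-binding proteins with arginine-glycine motifs, a class of PRMT1 substrates, 15 transcripts were higher (30.6%) and 14 lower (28.6%), with a median of 0.01. The shares of all tested genes were 22.2% and 25.3%. The nucleolar methyltransferase FBL fell from 125 and 131 CPM to 70.4 and 71.3 CPM. HNRNPA1 fell from 1579 and 1611 CPM to 1002 and 890.5 CPM and ATXN2 rose from 15.4 and 13.8 CPM to 32.6 and 42.2 CPM.

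Antiviral and antigen presentation genes that were called were mostly lower. Of 36 interferon-stimulated and antiviral genes tested, 12 fell and 2 rose. HLA-B, a class I molecule, fell from 110.1 and 114 CPM to 48.2 and 41.9 CPM (-1.32 ± 0.09), and TAP1, which pumps peptides to class I, from 23.5 and 22.6 CPM to 10.2 and 8.91 CPM. IFIT5, an antiviral effector, fell from 42.6 and 37.9 CPM to 16.2 and 14.8 CPM, and IFITM1, a membrane protein that hinders virus entry, from 12.2 and 10.8 CPM to 1.84 and 2.15 CPM. MAVS, the mitochondrial adaptor of RNA sensing, rose from 64.2 and 60.1 CPM to 90.5 and 115 CPM. The other that rose, IFIT3, was near the limit of detection in the controls (0.499 and 0.0984 CPM) and stood at 1.55 and 1.58 CPM in the knockdown. Its change of 2.37 was 1.63 (adjusted p = 0.087) without the second control library and 3.90 (adjusted p = 0.00305) without the first.

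Among genes of RNA surveillance, the kinase and the helicase rose. Nonsense-mediated decay removes transcripts with early stop codons, and SMG1 phosphorylates the helicase UPF1 to start it. SMG1 rose from 118 and 100.4 CPM to 246 and 358 CPM (1.46 ± 0.13) and UPF1 from 109 and 103 CPM to 181 and 211 CPM (0.89 ± 0.09). The exon junction subunit MAGOHB fell from 55.3 and 57.9 CPM to 36.1 and 33.5 CPM. In all, 7 of 15 were higher and 2 lower, and 7 and 1 after adjustment. Small nucleolar RNA host genes, whose spliced transcripts are known to be degraded by this pathway, gave 12 higher and 1 lower of 28, or 12 and 3 after adjustment. SNHG12 rose from 37.9 and 40.45 CPM to 68.2 and 63.7 CPM (0.75 ± 0.10), SNHG7 from 96.01 and 100.5 CPM to 159 and 143 CPM (0.62 ± 0.09) and SNHG16 from 491 and 452 CPM to 699.85 and 629.96 CPM. Among long nuclear RNAs, MALAT1 rose from 409 and 372 CPM to 692 and 926 CPM (1.05 ± 0.10) and KCNQ1OT1, an unspliced antisense RNA, from 39.7 and 45.2 CPM to 127 and 207 CPM, a change of 1.98 that the length adjustment cut to 0.60. MIR222HG, the host of the microRNA pair miR-221 and miR-222, fell from 35.6 and 37.99 CPM to 5.61 and 5.18 CPM (-2.77 ± 0.15).

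Transcripts annotated inside introns were higher as a class. GENCODE's sense-intronic genes lie within an intron of another gene on the same strand, so that reads from the unspliced host and from the intronic gene cannot be told apart. Summed over all 881 annotated sense-intronic genes, with no filter, they took 284 and 271 CPM of all counts in the controls, 273.5 and 308.5 in the MLL2 knockout and 490.1 and 681 in the PRMT1 knockdown. Both knockdown libraries thus exceeded all 4 others. TEC genes, GENCODE's label for mostly unspliced transcripts whose coding status is unsettled, took 276 and 281 in the controls, 250.5 and 271.5 in the knockout and 346 and 492 in the knockdown. Small nuclear RNA genes and their copies took 85.6 and 69.5 in the controls, 111.9 and 98.9 in the knockout and 199.9 and 178 in the knockdown. Other noncoding classes differed. Long intergenic RNA genes rose from 5532 and 5467 in the controls to 6735 and 8534 in the knockdown, and antisense genes from 3778 and 3817 to 3879 and 4371. Sense-overlapping genes fell from 354.9 and 317.1 to 226.6 and 288.0. Processed pseudogenes (1942 and 1804 against 1879 and 1826) and small nucleolar RNAs (10820 and 13040 against 11120 and 15720) overlapped between the groups. Protein-coding genes took 91.7% to 92.6% of counts in the 6 libraries. Of the 227 sense-intronic genes that passed the filter, 64 were called higher and 2 lower, but genes this low can pass through the group in which they are high, so the counts describe only these genes.

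Within these 227 genes the intronic gene and its host were set side by side, as a description under the same limit. The median control level of the 227 was 0.544 CPM, so the filter itself can favour an intronic change above that of the host. The share above the host is therefore not read as a result. Of the 227, 201 lay in exactly 1 tested protein-coding gene on the same strand. The intronic gene had the higher log2 change in 170 of the 201, with a median difference of 0.999 on the log2 scale (1.33 after length adjustment, where it was higher in 181). The median log2 difference of the hosts was 0.08. Among the 62 intronic genes of these pairs that were called higher, the host was called higher in 32, lower in 9 and not called in 21. DGCR11, in the adhesion gene DGCR2, rose from 2.79 and 2.31 CPM to 16.6 and 18.1 CPM (2.76 ± 0.24) while DGCR2 rose by 0.68. N4BP2L2-IT2, in N4BP2L2, rose from 3.19 and 3.89 CPM to 7.01 and 11.9 CPM (1.42 ± 0.29) while N4BP2L2 rose by 0.31 (-0.09 in the adjusted fit), a call lost without the second control library (0.29, adjusted p = 0.054). E2F3-IT1 rose from 0.399 and 0.148 CPM to 1.06 and 2.37 CPM (2.63) while its host E2F3, a cell cycle factor, fell from 65.6 and 59.5 CPM to 49.6 and 50.035 CPM (-0.33). Both rest on single libraries. E2F3-IT1 lost its call without the second knockdown library (1.94, adjusted p = 0.228) or the second control library (2.08, adjusted p = 0.0868), stood at 3.48 (adjusted p = 0.016) without the first control library, and there the host E2F3 was not called (-0.26, adjusted p = 0.115). SLIT2-IT1 rose from 0.948 and 1.48 CPM to 8.61 and 10.1 CPM, inside SLIT2 (1.98). RNU2-63P, a copy of the U2 small nuclear RNA, rose from 0.549 and 0.935 CPM to 8.32 and 6.63 CPM (3.32 ± 0.38), and because U2 copies are nearly identical its reads may belong to others.

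**Figure D4:**
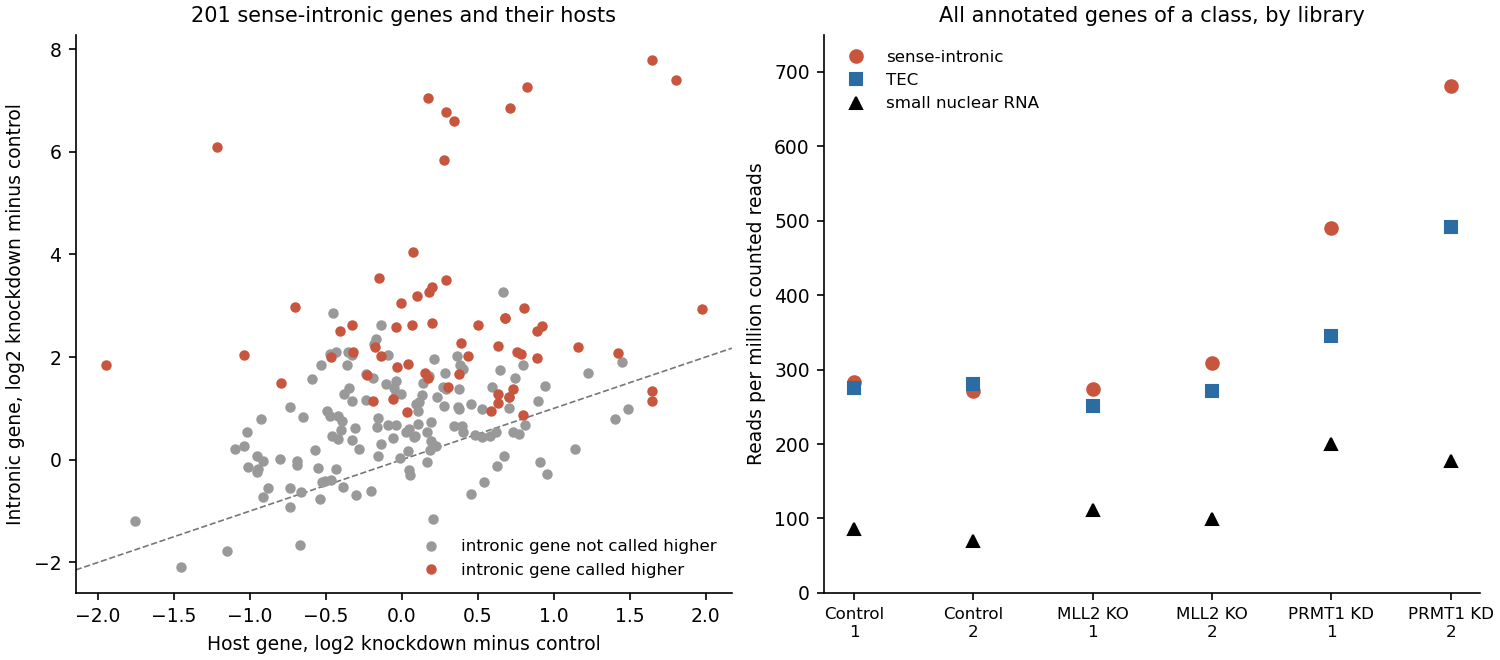
Left, fitted log2 change of 201 sense-intronic genes against that of the host gene, with the line of equality; points above 5 are genes with no or almost no control reads, whose fitted value depends on the prior count. Right, CPM of all counts, summed over all annotated genes of 3 classes in the 6 libraries. On the left 170 points lie above the line, a count that the expression filter can raise. On the right the 2 knockdown libraries are the highest in each of these 3 classes, which does not hold for every other noncoding class.

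**Figure D5:**
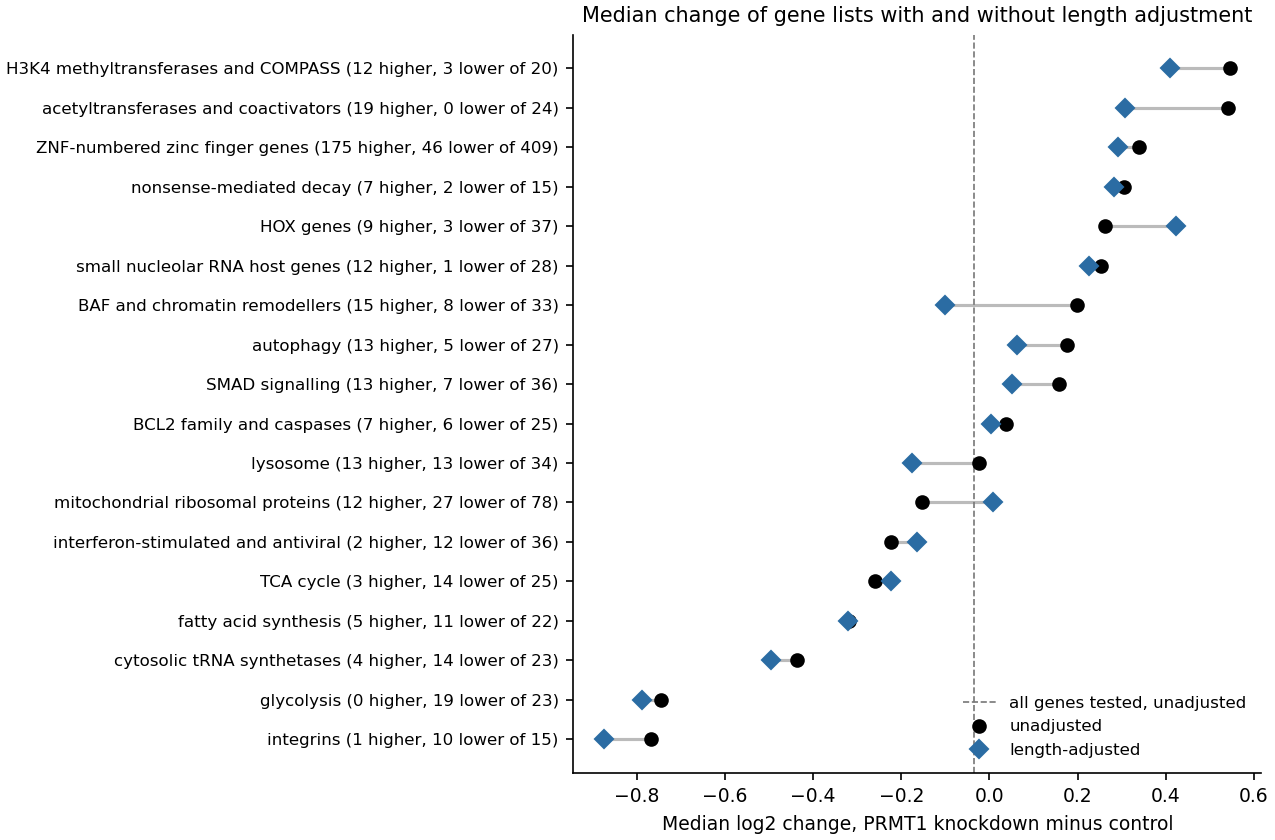
Median log2 change of 18 gene lists without (black) and with (blue) length adjustment, with the counts of members called higher and lower in the unadjusted fit; the dashed line is the median of all genes tested. With the centred curves used here, the BAF and mitochondrial ribosomal lists change sign, whereas glycolysis, integrins and COMPASS keep theirs.

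The 2 knockdown libraries differed from each other more than the controls did. The SD of the log2 difference between them was 0.273 over genes with an average log2 CPM above 2, against 0.204 between the controls and 0.211 between the knockout libraries, and 65 genes were over 2-fold apart, against 25 in the controls. Length adjustment brought the SD to 0.255. Genes with a gap that were higher in the second library included the following. SRRM2, a giant splicing factor gene, stood at 73.1 and 166 CPM in the 2 knockdown libraries, KMT2D at 37.8 and 95.5 CPM, TNRC18 at 21.4 and 49.2 CPM and LMX1B at 6.24 and 14.4 CPM. Without the second library the log2 change fell from 1.95 to 1.24 (adjusted p = 6.30e-15) for SRRM2, from 1.76 to 0.94 (adjusted p = 2.11e-07) for KMT2D, from 1.08 to 0.36 (adjusted p = 0.0757) for TNRC18 and from 1.18 to 0.45 (adjusted p = 0.224) for LMX1B. SHANK3, at 5.27 and 12.3 CPM against 9.18 and 7.53 CPM in the controls, did not pass the test, and was -0.66 (adjusted p = 0.0381) without the second library and 0.56 (adjusted p = 0.0422) without the first. In the other direction stood copies of the 7SK RNA such as RN7SKP80, 82.9 and 30.4 CPM against 115 and 57.3 CPM in the controls, where the controls were also far apart. That gene was not called, and leaving out single libraries gave -1.03 (adjusted p = 0.0114) without the second control and -1.51 (adjusted p = 8.06e-10) without the first knockdown library, and a call at -0.61 (adjusted p = 0.011) or -0.61 (adjusted p = 0.0222) without the first or second knockout library, which share in the spread. PRMT1 was as low in the second knockdown library as in the first.

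Some abundant transcripts were steady. In 452 protein-coding genes the 95% interval of the log2 change lay within 0.3 of 0 in both fits. The ATP synthase subunits ATP5F1A and ATP5F1B had log2 differences of 0.08 ± 0.08 and -0.08 ± 0.09, the mitochondrial chaperone HSPD1 of -0.03 ± 0.09 and CCT4, a subunit of the cytosolic chaperonin, of -0.04 ± 0.09. The creatine kinase gene CKB stood at -0.09 ± 0.08. With 1 knockdown library left out small changes were called, 0.17 (adjusted p = 0.00398) for ATP5F1A without the second, and -0.21 (adjusted p = 0.000416) for ATP5F1B, -0.17 (adjusted p = 0.00301) for HSPD1 and -0.16 (adjusted p = 0.00654) for CCT4 without the first.

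The difference between the 2 depletions was tested directly by setting the knockdown against the MLL2 knockout. There 7154 genes (40.7%) were called, 3401 higher and 3753 lower in the knockdown. PRMT1 was lower by 3.51 on the log2 scale. TSC22D3 was lower in the knockdown than in the knockout by 2.88 (adjusted p = 2.76e-15), CA2 by 1.88 and PCK2 by 1.64, and EMILIN2 was higher by 4.57, CDK6 by 1.73 and CTSA by 1.61. All 18 acetyltransferase and coactivator genes called in this contrast were higher in the knockdown, as were 12 of the 14 autophagy genes called. Of all tested genes 19.4% were called higher and 21.4% lower there. These counts come from the fit without length adjustment, and the coactivator genes have a long summed exon length (median 9150.5 nt). Other genes did not pass this test. The difference was -0.39 (adjusted p = 0.569) for C11orf96, 0.10 (adjusted p = 0.679) for KRT8, -0.08 (adjusted p = 0.518) for HSPA8 and -0.05 (adjusted p = 0.671) for AARS1. Both comparisons with control use the same 2 control libraries, so likeness between them was not measured.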

How the data were processed

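Total RNA from 293T cells, extracted with TRIzol and prepared with the TruSeq Stranded Total RNA Gold kit per the labels, was sequenced in 6 libraries, 2 per group. What the authors deposited is a table of raw gene counts for each library. The submitters' processing notes name FastQC 0.11.4, Trim Galore 0.6.10, the aligner STAR 2.7.5a with build hg38, featureCounts 1.5.0-p1 and DESeq2 1.36.0, without roles. Per the file headers, the counts came from featureCounts 2.0.1 with GENCODE 34, a minimum mapping quality of 10 and strand setting 2. Both versions are given because the sources differ. Every row named a gene, and no columns of other samples were present.

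Genes were kept by edgeR's expression filter, libraries scaled by TMM, and all 3 groups fitted together with edgeR 4.0.16's quasi-likelihood test (R 4.3.3, limma 3.58.1) with Benjamini-Hochberg adjustment over 17575 genes. CPM values use the TMM-scaled library sizes. For the length adjustment, a natural spline with 5 degrees of freedom on log exon length, set by genes with an average log2 CPM above 2, gave each gene an offset in each library. Each curve was centred on its median over the tested genes. The fits were tested on simulated data for this comparison with 16628 genes, where 73.1%, 92.5% and 100% of genes changed 1.5-, 2- and 4-fold were recovered and 10 of 16428 unchanged genes were called. With a simulated length trend over 16660 genes, 331 of 16460 unchanged genes were called without and 10 with the adjustment. That trend was the curve fitted to these data, so its removal by the same kind of curve was built in. In both simulations only a small share of genes was changed, all above an average log2 CPM of 2. In the data 47.4% of genes were called, so these rates need not hold there.

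Gene lists, motifs and the choice of genes to name were made with earlier results of these data known. The genes named were the methyltransferase family, the 15 largest protein-coding increases and decreases reaching 5 CPM and called in both fits, the leading genes of each list, genes most moved by the adjustment, noncoding genes, genes that differed between the knockdown libraries and steady genes. The choice of the largest changes also required both knockdown libraries on 1 side of both controls. Other genes named were chosen after their values were seen. Some genes are not reported here. Promoters are from RefSeq (GRCh38.p14), and gene types and hosts of intronic genes from GENCODE 29. Alternatives were other scalings, DESeq2 1.42.0, other filters, other length curves, a replicate block and leaving out each library. Depth was 20061471 to 22351532 counts per library, and floors cover counting error only, whereas intervals come from the fit and include the spread between libraries.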

Additional observations from a re-analysis of the deposited data

How the results depend on the processing

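The number of genes called against control stayed within 1.5 times the reported 8338 under all alternatives run, from 6416 without the second control library to 8801 with a replicate block and length offsets. The length-adjusted count of 8329 ranged from 6466 to 8801, and the count of 7154 against the knockout from 5243 to 7606. The balance of directions against control depended on the fit. RLE scaling gave 4217 higher and 4224 lower, DESeq2 3883 and 3934, and the 4 libraries alone 4084 and 4047. A filter at a mean of 1 CPM kept an excess of decreases, 3852 higher and 4263 lower. The length-adjusted balance turned with uncentred curves, to 4637 higher and 3900 lower. The median log2 change was then 0.0596 in place of -0.0299. List medians were not computed for that fit. PRMT1 stayed between -3.17 and -3.03. Leaving out single libraries gave 6416 to 8238, 6466 to 8252 and 5243 to 7333 calls in the 3 comparisons, with the lone library of an arm assumed to vary like the others. A replicate block on the library numbers gave 8710 calls. The numbers are only names here: deviations of same-numbered control and knockdown libraries correlated at 0.05 over 11376 genes, and control and knockout at 0.07 and knockout and knockdown at 0.20. The sign of 5 named genes changed between the reported fit and an alternative with a call in at least 1 of them: with length offsets ARID1B stood at -0.0433, KMT2A at -0.112, MACF1 at -0.618 and N4BP2L2 at -0.0929, with a replicate block beside the offsets at -0.042, -0.121, -0.617 and -0.0964. SHANK3 stood at -0.664 without the second knockdown library and at 0.556 without the first. Other named genes near 0, PRMT5 among them, changed sign with no call in either. The offsets were added for the named genes and for the comparison with the knockout after the data were seen. The depth limits what can be said of genes under the filter, which were not tested.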

Other observations

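Genes of glutathione and redox balance that NRF2 is known to drive were called evenly, 5 higher and 5 lower of 22 tested (22.7% each). These shares are close to the 22.2% and 25.3% of all tested genes. After length adjustment 9 were higher and 4 lower. The ferritin light chain gene FTL rose from 353 and 347 CPM to 581 and 499.7 CPM, the heme oxygenase gene HMOX1 from 23.005 and 23.2 CPM to 37.3 and 34.1 CPM and GCLM, the regulatory subunit of glutathione synthesis, from 25.6 and 18.3 CPM to 57.4 and 63.9 CPM (1.47 ± 0.14). SLC7A11, the cystine importer, which also belongs to the amino acid response, fell from 88.6 and 89.2 CPM to 31.2 and 37.04 CPM (-1.38 ± 0.11), and GSS, glutathione synthetase, from 137 and 133 CPM to 71.1 and 70.3 CPM (-0.93 ± 0.09). The groups did not overlap in any of these genes, where 35% of all tested genes had both knockdown libraries above both controls and 38.5% below. Creatine and polyamine genes gave 9 lower and 3 higher of 17. GAMT, which uses the methyl donor to make creatine, fell from 51.4 and 52.2 CPM to 21.1 and 19.4 CPM (-1.36 ± 0.11), and SMS, spermine synthase, from 193 and 187 CPM to 121 and 105 CPM, while SLC6A8, the creatine importer, rose from 42.5 and 45.7 CPM to 67.2 and 84.4 CPM (0.78 ± 0.12).

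Of 22 targets and partners of YAP and TEAD, 6 were higher and 6 lower (27.3% each), near the 22.2% and 25.3% of all tested genes. AJUBA, a LIM protein of the pathway, fell from 28.1 and 34.6 CPM to 6.63 and 7.59 CPM (-2.14 ± 0.17) and the factor TEAD2 from 35.7 and 39.5 CPM to 18.9 and 17.3 CPM, in contrast to ANKRD1, which rose by 2.23. Of 27 polycomb genes, which write or read repressive histone marks, 6 were higher (22.2%) and 7 lower (25.9%). These are nearly the shares of all tested genes, 22.2% and 25.3%. SUZ12 rose from 52.9 and 48.2 CPM to 87.8 and 90.6 CPM (0.82 ± 0.10) and PHC1 fell from 13.1 and 14.2 CPM to 4.35 and 6.89 CPM (-1.27 ± 0.22). Of 32 proteasome subunits 9 were higher and 5 lower, or 10 and 2 after length adjustment. PSMD11, a lid subunit, rose from 86.9 and 84.5 CPM to 167 and 168 CPM (0.97 ± 0.08) and PSMD2, a base subunit, fell from 220.1 and 227 CPM to 135 and 133 CPM (-0.74 ± 0.08).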
